A study of Mus musculus with 12 samples.

Results

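H3K27me3 islands of adult mouse enterocytes were compared with those of embryonic intestinal epithelium at E14.5, a stage named in days of gestation, using 4 of the 12 libraries of a ChIP-seq series on the mouse small intestine. The 4 libraries were the 2 enterocyte (AE) and the 2 E14.5 ChIP libraries, and each came as 1 deposited list of enriched islands on the mm9 genome. These populations were chosen because their duplicates agreed best, so the agreement of duplicates is given only as a description. Enterocytes came from 2-month-old (postnatal day 60) males carrying Lgr5EGFP-Cre-ERT, of a mixed C57BL/6 CD1 strain. E14.5 epithelium came from embryos of the same labelled strain, whose sex and genotype the labels do not give. Both populations were sorted for EpCAM and against CD31, CD45 and DAPI, with 250000 cells isolated. That gate holds no marker of absorptive cells, so other epithelial cells could enter the AE sort, and the lists hold no gene names against which the cell type labels could be checked. Adult stem cells with high Lgr5-EGFP (ISC), from males of the same genotype and age, and epithelium of the earlier stage E12.5, 2 libraries each, served as populations that the comparison did not use.

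H3K27me3 is the trimethylation of lysine 27 on histone H3. Polycomb repressive complex PRC2 places it, and it marks genes that are kept silent, among them regulators of development that a tissue does not use. The mark forms broad domains rather than narrow peaks. In the intestine, the embryonic epithelium at mid-gestation is a proliferating layer from which villi and the adult cell types later form, while enterocytes are the differentiated absorptive cells of the villus.

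Classes of DNA were formed on the grid of 200 bp windows to which all island borders belong. The AE-only class was covered by islands in both AE lists and neither E14.5 list, the E14.5-only class in both E14.5 lists and neither AE list, and the shared class in all 4 lists. Where a list has no island, the mark may be absent or below the caller's limit, and these cannot be told apart. Of 1007201 windows (201 Mb) called in any of the 4 lists, 7.36% were AE-only, 10.9% E14.5-only and 11.4% shared. The AE-only class held 14.8 Mb in 3490 stretches, the E14.5-only class 22.0 Mb in 5275 stretches and the shared class 23.0 Mb in 3228 stretches. The remaining length was called in other combinations, and 111 Mb (55.2%) in 1 list alone.

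Most length that both enterocyte libraries called was also called at E14.5. Both AE lists covered 44.0 Mb, of which 52.3% was shared and 33.7% AE-only. Both E14.5 lists covered 57.1 Mb, of which 40.3% was shared and 38.6% E14.5-only. The AE lists covered 79.998 and 91.0 Mb and the E14.5 lists 75.9 and 109 Mb, or 85.5 ± 7.75 Mb against 92.5 ± 23.5 Mb (SD, n = 2 each, exact two-sided permutation p = 1). With 2 libraries against 2, no exact permutation test can give a p below 0.3333, so the classes are described by their lengths. The E14.5-only class was the longer of the pair with all 4 lists, but the order rests on requiring both libraries of each population. When AE replicate 1 was left out, 48.4 Mb were AE-only and 27.6 Mb E14.5-only, and when AE replicate 2 was left out, 40.1 and 28.5 Mb. When E14.5 replicate 1 was left out, 16.03 Mb were AE-only and 59.8 Mb E14.5-only, and without E14.5 replicate 2 the lengths were 19.8 and 36.7 Mb. A class that needs only 1 library gains length by the rule, and the order of the lengths changed with the library left out. Among islands at or above the list's median ChIP over control, 6.05 Mb were AE-only, 16.1 Mb E14.5-only and 11.0 Mb shared.

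**Figure D1:**
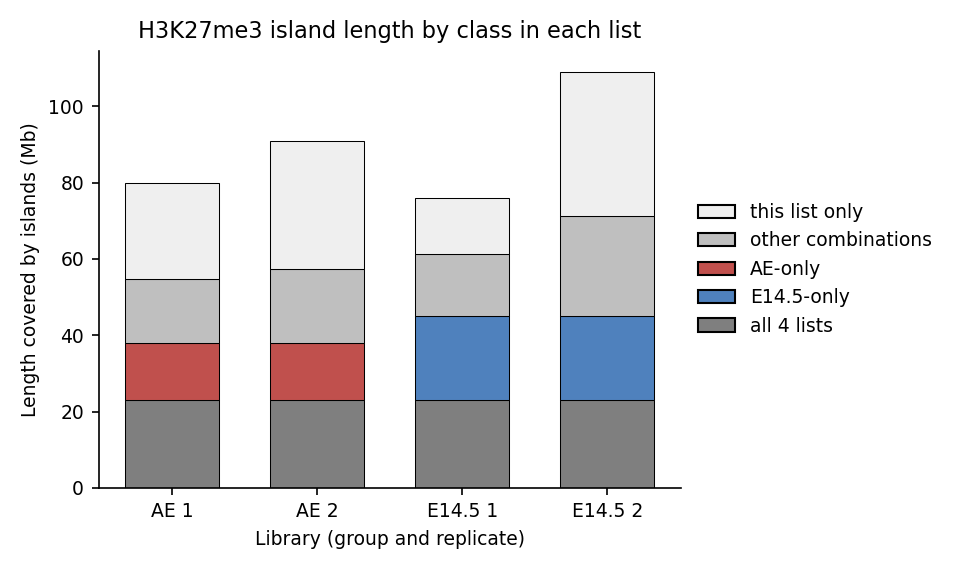
Stacked bars give the length covered by islands (Mb) in each AE and E14.5 list, split into length shared by all 4 lists (23.0 Mb), length of the own population only (14.8 Mb in AE, 22.0 Mb in E14.5), other combinations and length called in that list alone. The list-only part ran from 14.6 Mb in E14.5 replicate 1 to 37.8 Mb in E14.5 replicate 2.

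Libraries of different populations overlapped to a like extent whichever replicates were paired. The Jaccard index, the length in both lists divided by the length in either, was 0.253, 0.244, 0.237 and 0.251 for the 4 pairs of an AE with an E14.5 list. It was 0.346 between the AE lists and 0.447 between the E14.5 lists. Of the length of AE replicate 1, 31.6% was in no other list, and of AE replicate 2, 36.9%. The figures were 19.3% for E14.5 replicate 1 and 34.6% for E14.5 replicate 2.

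Stretches of both one-sided classes were shorter than shared stretches and resembled each other in length. The one-sided rule cuts away windows called in the other population and can leave only the edge of an island. The shorter length than in the shared class is therefore no independent result. The median stretch was 3.2 kb in the AE-only class (quartiles 1.6 and 5.4 kb), 3.4 kb in the E14.5-only class (1.4 and 5.6 kb) and 5.2 kb in the shared class (3 and 8.6 kb). Stretches of 20 kb or more numbered 42 in the AE-only class and 43 in the E14.5-only class, against 154 in the shared class, and held 8.24%, 5.58% and 19.9% of their length. Stretches of a single window made up 4.99% of the AE-only, 6.16% of the E14.5-only and 0.589% of the shared stretches. Within whole lists, median island lengths were 7 and 5.2 kb in AE and 7 and 8.4 kb in E14.5. They averaged 6.1 ± 1.27 and 7.7 ± 0.990 kb (SD, n = 2 each), a difference of -1.6 kb (exact permutation p = 0.667). The median island lengths of the full AE and E14.5 lists thus met at 7 kb. The difference was -1.7 kb at equal covered length and -2.6 kb among islands at or above the list's median ChIP over control. In both settings the exact permutation p was 0.3333, the smallest this design allows.

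**Figure D2:**
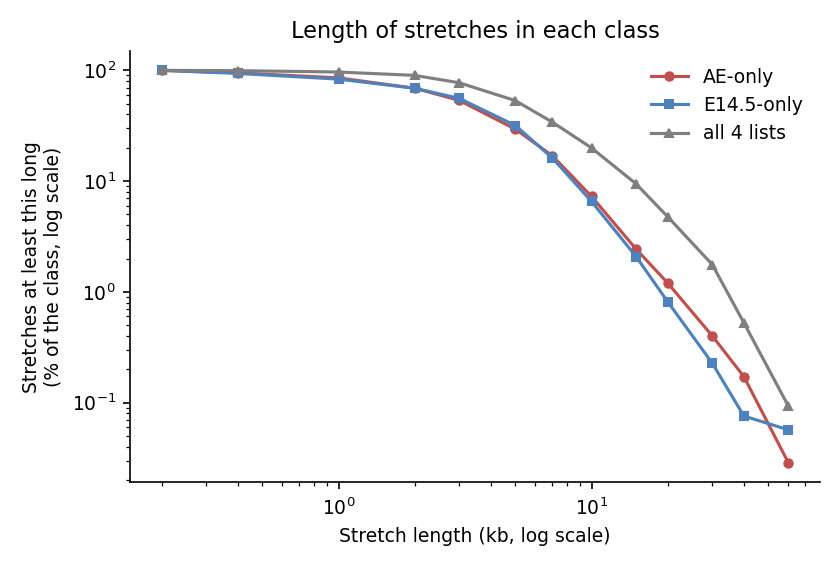
The curves give the percentage of stretches in each class (log scale) that are at least as long as the length on the x axis (kb, log scale). The AE-only and E14.5-only curves run close together, with 29.5% and 31.8% of stretches at 5 kb or more, below the shared class with 53.3%.

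Most one-sided length lay in islands that overlapped no island of the other population. Islands touched where they shared a 200 bp window, and those that shared none counted as apart however near they lay. One-sided windows lie outside the other population's islands by rule, which favours islands that are apart. The share of all island length that is apart is not given, so these shares do not set the one-sided classes apart from other called length. In the AE-only class, 69.5% of the length (10.3 Mb) lay in AE islands that touched no E14.5 island in either replicate, and 22.7% in islands that reached E14.5 islands in both. In the E14.5-only class, 60.5% (13.3 Mb) lay in islands apart from every AE island and 30.9% in islands that reached AE islands in both replicates. Stretches wholly apart had medians of 4 kb (AE-only, 1987 stretches) and 4.8 kb (E14.5-only, 2314 stretches). Stretches with no such part had a median of 1.8 kb in both classes. Stretches also lay close to others of their class: 63.8% of AE-only, 65.6% of E14.5-only and 56.9% of shared stretches had another of their class within 50 kb.

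Read densities were compared within each library, since the libraries' total depth is unknown and the lists give reads only inside islands. Islands that were one-sided and apart carried fewer ChIP reads per kb than islands over the shared class in all 4 libraries, and the gap was wider at E14.5. The classes come from calls on these same reads, and a class called in all 4 lists favours dense islands by its rule. Neither the direction nor the size of the gap is therefore an independent result. Islands in 1 list alone were lower still, with medians of 30.0 and 22.7 reads per kb in AE and 24.4 and 17.0 in E14.5. In AE replicate 1 the median was 35.2 ChIP reads per kb in AE-only islands and 41.4 in islands over the shared class. In AE replicate 2 these medians were 23.7 and 28.9 reads per kb. In E14.5 replicate 1 they were 29.6 reads per kb in E14.5-only islands and 41.4 in islands over the shared class, and in E14.5 replicate 2 they were 20.4 and 31.2. One-sided islands thus reached 0.849 and 0.820 of the shared median in AE, against 0.714 and 0.653 in E14.5, and the AE and E14.5 libraries did not overlap in this measure. Over all islands of a list, the medians were 34.8 and 24.4 reads per kb in AE and 31.1 and 20.5 in E14.5. Relative to the shared median, these were 0.839 and 0.845 in AE and 0.750 and 0.658 in E14.5. The contrast was therefore not particular to one-sided islands. One-sided islands thus stood near the median of their list in all 4 libraries. The contrast between the populations rests on how far the shared islands exceeded it.

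Control reads, from the input library that both replicates of a population share, were also lower in one-sided islands. Their medians were 16.5 and 17.3 per kb in AE-only islands and 20.6 and 20.5 in E14.5-only islands. In islands over the shared class they were 19.3 and 20.1 per kb in AE and 23.5 and 23.3 in E14.5. The control of one-sided islands was therefore 0.856 and 0.863 of the shared level in AE, and 0.873 and 0.881 in E14.5. The ratio of ChIP to control reads, unscaled, was 2.10 and 1.36 in AE-only islands against 2.14 and 1.44 in shared AE islands. In E14.5-only islands it was 1.42 and 1.00, against 1.74 and 1.33 in shared E14.5 islands. Relative to shared islands the ratio was 0.984 and 0.949 in AE, and 0.821 and 0.750 in E14.5. In enterocytes the lower ChIP density of one-sided islands was thus nearly matched by a lower control density, while at E14.5 it was not. How the selection of islands by the caller enters these values was not tested.

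**Figure D3:**
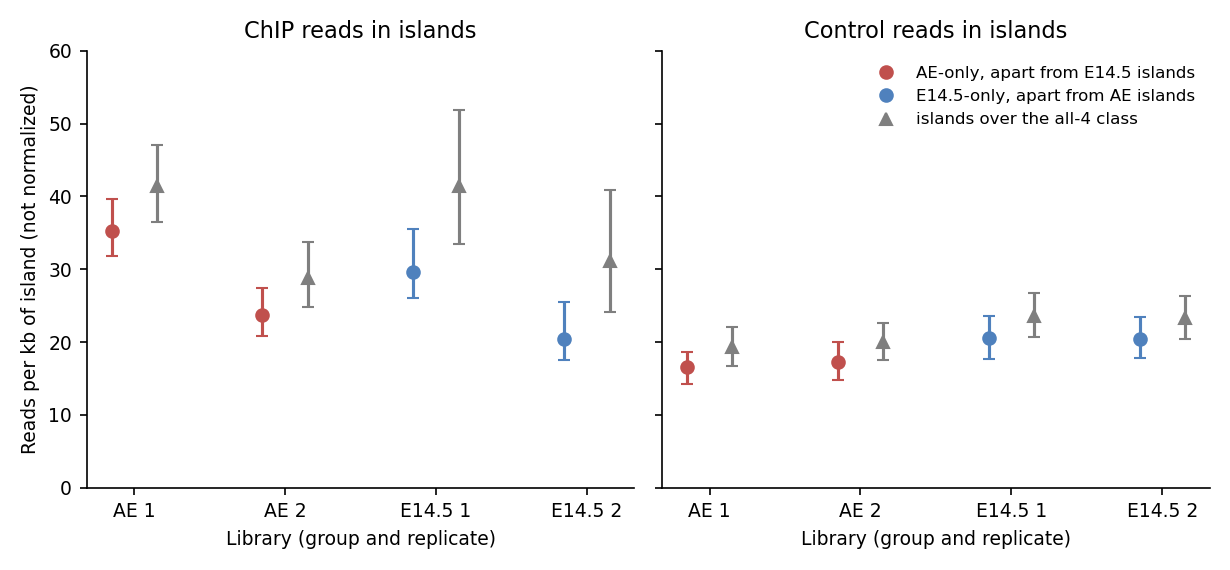
Points are medians and bars the quartiles of reads per kb of island (not normalized), for ChIP reads on the left and control reads on the right, in AE-only or E14.5-only islands that touch no island of the other population (circles) and in islands over the shared class (triangles). The ChIP medians of one-sided islands are 35.2, 23.7, 29.6 and 20.4, below the triangle of the same library in each case.

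Chromosome X separated the populations in every library. Enterocyte islands covered 0.228 and 0.246 Mb of chromosome X, or 0.286% and 0.271% of their lists, and E14.5 islands covered 2.24 and 3.16 Mb, or 2.95% and 2.89%. The shares averaged 0.278 ± 0.0105% in AE and 2.92 ± 0.0377% in E14.5 (SD, n = 2 each), a difference of -2.64 percentage points with an exact two-sided permutation p of 0.3333, the smallest this design allows. The AE lists held 45 and 59 islands on chromosome X, against 324 and 363 in the E14.5 lists. The groups did not overlap, and the difference was between -2.67 and -2.62 points whichever of the 4 libraries was left out.

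Of the length called on chromosome X in any of the 4 lists, 0.0995% was AE-only and 22.3% E14.5-only, beside 7.52% and 10.7% of the length called on the autosomes. The AE-only class held 6 stretches there (0.0042 Mb) and the E14.5-only class 225 (0.940 Mb, median 4 kb), spread over 71 bins of 1 Mb. The longest AE-only stretch on chromosome X was 2.0 kb (chrX:122706401-122708400), directly after an E14.5 island. The longest E14.5-only stretch there spanned 14.6 kb (chrX:136807401-136822000). It had 32.3 and 24.1 ChIP reads per kb in E14.5 replicates 1 and 2, over 15.3 and 15.4 control reads per kb. The nearest AE islands were 209 kb before and 1333 kb after it.

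Part of what enterocytes called on chromosome X had a high input. Of the AE islands there, 14 and 11 exceeded 2 times the list's median control density, or 31.1% and 18.6%, against 2.47% and 4.96% of the E14.5 islands. The longest shared stretch of the chromosome, 18.4 kb (chrX:120112401-120130800), had 99.0 and 93.3 control reads per kb in AE and 72.8 and 78.9 in E14.5. Among islands within that limit, control density on chromosome X was 0.732 and 0.674 of the autosomal median in AE, from 31 and 48 islands, and 0.712 and 0.711 in E14.5, from 316 and 345 islands. ChIP density in these islands was 1.01 times the autosomal median in both AE lists and 0.839 and 0.835 times in E14.5. Female cells carry 1 inactive X chromosome, which is known to be rich in H3K27me3. The adult mice were male and the sex of the embryos is not labelled, so age and sex cannot be told apart here.

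In the populations outside the comparison, the chromosome X share was low in the adult ISC lists and differed between the E12.5 replicates. ISC lists, also from adult males, gave 0.135% and 0.301%. E12.5 lists gave 0.432% in replicate 1, close to the adult lists, and 1.39% in replicate 2. High input also entered these shares unevenly. Islands above 2 times the list's median control density held 0.0008 of 0.325 Mb in ISC replicate 1 and 0.1396 of 0.1828 Mb in ISC replicate 2. In E12.5 they held 0.1036 of 0.2702 Mb in replicate 1 and 0.104 of 1.0576 Mb in replicate 2. The E14.5 duplicates also agreed less on this chromosome, with a Jaccard index of 0.291, than on the autosomes, with 0.452.

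Among autosomes the balance of the classes varied by chromosome, from a ratio of AE-only to E14.5-only length of 0.405 on chromosome 17 to 1.30 on chromosome 15. The AE-only class took 5.55% (chromosome 4) to 11.3% (chromosome 15) of the length called on a chromosome, with a median of 7.70%. The E14.5-only class took 8.06% (chromosome 16) to 15.4% (chromosome 17), with a median of 10.7%. On chromosome 15 the AE-only class had 0.990 Mb and the E14.5-only class 0.759 Mb. On chromosome 17 they had 0.556 and 1.37 Mb. The ratio over all autosomes was 0.703. The ratio was above 1 on 3 of 19 autosomes, chromosomes 1, 15 and 16. Relative to all autosomes, chromosome 15 stayed between 1.22 and 2.29 and chromosome 17 between 0.570 and 0.696 under the 8 settings in which this ratio was recomputed. Chromosome 15 was not the highest in all of them: chromosome 16 exceeded it at equal covered length (1.77 against 1.67), among islands at or above the list's median ChIP over control (1.94 against 1.78) and without AE replicate 2 (1.53 against 1.22). Chromosome 1 also exceeded it in the last 2, at 1.89 and 1.41. These chromosomes were singled out after their values were seen. The shared class was most extensive on chromosome 19, at 18.0% of the length called there, and ran down to 7.54% on chromosome 16.

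**Figure D4:**
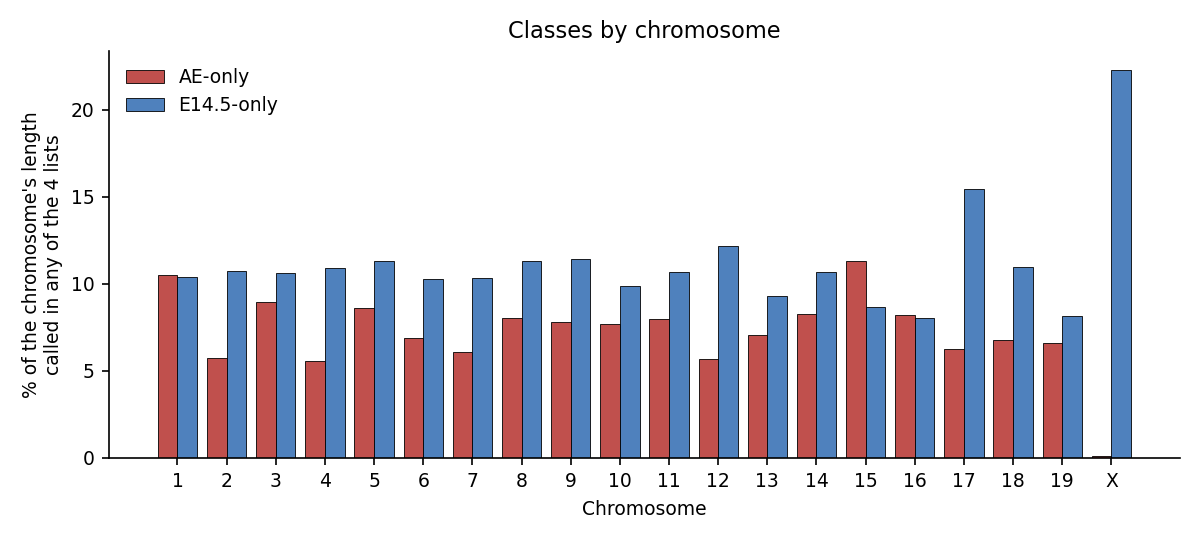
Bars give AE-only and E14.5-only length as a percentage of the length called in any of the 4 lists, for each autosome and chromosome X. AE-only length is close to 0 on chromosome X (0.0995%) where E14.5-only length is 22.3%, and it exceeds E14.5-only length on chromosomes 1, 15 and 16.

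The 4 bins of 1 Mb with most AE-only length lay on chromosomes 15 and 9, which held 6.67% and 6.61% of the class, less than chromosome 1 with 9.49%. The first was on chromosome 15 (chr15:82000001-83000000), with 197.2 kb in 25 stretches and 5.8 kb of E14.5-only length. AE islands covered 363 and 313.8 kb of this bin and E14.5 islands 72.4 and 94.2 kb. The bins at chr15:100000001-101000000 and chr15:101000001-102000000 held 148.8 and 142.2 kb of AE-only length, beside 0 and 9.8 kb of E14.5-only length. The fourth, on chromosome 9 (chr9:110000001-111000000), held 124.4 kb beside 3.2 kb. In this bin the AE lists covered 163.2 and 183 kb and the E14.5 lists 14.8 and 22 kb.

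E14.5-only length was greatest in bins of chromosomes 8, 17, 4 and 9. The bin on chromosome 8 (chr8:112000001-113000000) held 166 kb of E14.5-only and 0 kb of AE-only length, with 29.6 and 35.6 kb covered in AE and 217.4 and 298.4 kb in E14.5. The bin on chromosome 17 (chr17:9000001-10000000) held 151.6 kb in 26 stretches, where AE islands covered 11.8 and 16 kb and E14.5 islands 215 and 313.6 kb. The bins on chromosome 4 (chr4:124000001-125000000, 148.4 kb) and chromosome 9 (chr9:34000001-35000000, 142.6 kb) also held 96.2 and 106.2 kb of shared length. In them, E14.5-only stretches thus stood beside domains that enterocytes also carried. Of 2161 bins with any island, 783 held both one-sided classes, 296 only the AE-only class and 697 only the E14.5-only class. The richest 10% of bins in each class held 61.1% of the AE-only and 51.2% of the E14.5-only length. The same share is not given for shared or all called length, so these values do not set the one-sided classes apart.

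The longest AE-only stretches were domains of 35.6 to 66.4 kb with ordinary input. The longest spanned 66.4 kb on chromosome 5 (chr5:125772201-125838600) and had 51.8 and 35.3 ChIP reads per kb over 22.7 and 22.4 control reads per kb in AE replicates 1 and 2. The nearest E14.5 islands were 104 kb before and 162.8 kb after it. The second, 57.8 kb on chromosome 15 (chr15:100591001-100648800), had 46.6 and 30.3 ChIP reads per kb over 23.1 and 23.0 control reads. Both exceeded the ChIP medians of 35.2 and 23.7 in AE-only islands. The ratio of ChIP to control reads was 2.28 and 1.58 over the chromosome 5 stretch and 2.01 and 1.32 over the chromosome 15 stretch, above and below the AE-only medians of 2.10 and 1.36.

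The third AE-only stretch, 48.2 kb on chromosome 4 (chr4:140175801-140224000), had 49.4 and 36.6 ChIP reads per kb. Chromosome 9 held the next 3 (chr9:110621001-110662200, chr9:114439001-114480000 and chr9:64408601-64448600), with 41.8 to 50.8 ChIP reads per kb in replicate 1 and 26.4 to 36.0 in replicate 2. The last of the 8 were on chromosome 8 (chr8:106735201-106774200, 39.0 kb) and chromosome 13 (chr13:55564801-55600400, 35.6 kb). The chromosome 8 stretch began where an E14.5 island ended, and the others lay at least 26.8 kb from any E14.5 island. Control density over the 8 stretches was 1.08 to 1.59 times the median of the list. The stretches were not particular to enterocytes: ISC islands covered 99.0% to 100% of each in replicate 1 and 33.6% to 92.2% in replicate 2. E12.5 islands covered 0% to 22.0% of each in replicate 1 and 0% to 12.3% in replicate 2.

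The 2 longest E14.5-only stretches had an unusual input and the next 6 did not. The stretch of 78.0 kb on chromosome 11 (chr11:3022201-3100200) had 428.8 and 299.6 ChIP reads per kb over 440.8 and 422.3 control reads per kb, or 20.7 and 19.6 times the control median of the list. That of 66.0 kb on chromosome 1 (chr1:85231201-85297200) had 60.1 and 38.8 ChIP reads per kb at 2.75 and 2.64 times the control median. E12.5 islands covered 100% and 96.4% of the chromosome 11 stretch and 100% and 98.2% of the chromosome 1 stretch. ISC islands covered 95.9% and 97.9% of the former and 0% and 99.7% of the latter. Over the whole classes, 0.0553% of AE-only length and 1.24% of E14.5-only length (0.272 Mb) lay in islands above 2 times the control median in both libraries, beside 0.552% of shared length in all 4.

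Of the other 6, the longest was 60.8 kb on chromosome 2 (chr2:26370601-26431400), with 44.9 and 30.6 ChIP reads per kb over 30.0 and 30.4 control reads per kb in E14.5 replicates 1 and 2. It lay 81.4 kb from the nearest AE island. Chromosome 8 held 2 (chr8:108249401-108290400 and chr8:112564801-112602600), of 41.0 and 37.8 kb, with 40.7 and 51.9 ChIP reads per kb in replicate 1 and 33.2 and 33.0 in replicate 2. The remaining 3 were on chromosome 1 (chr1:122839401-122877000, 37.6 kb), chromosome 11 (chr11:116974801-117010800, 36.0 kb) and chromosome 3 (chr3:14885001-14920600, 35.6 kb). The chromosome 3 stretch had 37.7 and 29.0 ChIP reads per kb over only 14.4 and 14.6 control reads per kb. These 6 all exceeded the ChIP medians of 29.6 and 20.4 in E14.5-only islands. Their ratio of ChIP to control reads was 1.37 to 2.61 in replicate 1 and 1.00 to 1.99 in replicate 2, beside medians of 1.42 and 1.00, and only the chromosome 11 stretch was below a median, in replicate 1. E12.5 islands covered 0% to 88.8% of each of the 6 in replicate 1 and 43.9% to 100% in replicate 2. ISC islands covered 0% to 20.7% in replicate 1 and 0% in replicate 2.

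In each library the 3 longest shared domains carried more ChIP reads per kb than the long one-sided stretches with ordinary input. They spanned 77.2 kb on chromosome 6 (chr6:52152001-52229200), 76.6 kb on chromosome 15 (chr15:102775601-102852200) and 65.4 kb on chromosome 11 (chr11:96108801-96174200). The chromosome 6 domain had 62.0 and 40.7 ChIP reads per kb in AE and 101 and 82.7 in E14.5, over 20.2 and 20.3 control reads in AE and 27.4 and 27.1 in E14.5. The island over it was 149.4 and 124 kb long in AE and 80.8 and 91.8 kb long in E14.5, so the AE density is averaged over more DNA. The chromosome 15 domain had 60.4 and 42.3 ChIP reads per kb in AE and 77.8 and 68.2 in E14.5. The other shared domains among the 8 longest lay on chromosome 3 (chr3:87995201-88052400), chromosome 4 (chr4:115588601-115645400), chromosome 5 (chr5:28467401-28519600), chromosome 19 (chr19:44790401-44840200) and chromosome Y (chrY:2847401-2902600). The one on chromosome Y had 350 control reads per kb in AE and 274 in E14.5, at least 12.7 times the list medians. In AE the order did not extend to all of these domains. The chromosome 4 domain had 49.4 and 34.3 ChIP reads per kb in AE, below the longest AE-only stretch with 51.8 and 35.3. The chromosome 3 and 5 domains were below that stretch in AE replicate 2 only (34.8 and 34.1), and the chromosome 19 domain in neither (56.6 and 38.8). In E14.5 the chromosome 4 domain had 59.1 and 48.8, above the long E14.5-only stretches with ordinary input.

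Within the shared class the level of the mark could be compared in all 4 libraries. For each of the 1721 shared stretches of 5 kb or more, ChIP over control reads of the islands over it was divided by the list's median over these stretches. Both AE levels were above both E14.5 levels in 561 stretches (32.6%), and both E14.5 levels were above both AE levels in 585 (34%), while 575 overlapped. The replicates of a population share their input reads, so their levels are not independent. The gap between the nearest AE and E14.5 levels reached 1.5 times in 37 stretches higher in AE and 43 higher in E14.5. Dividing by the median centres every list at 1, so the balance of the directions follows from the scaling and says nothing of a change in overall level.

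The stretches with the widest gaps, chosen after their values were seen, are given with their relative levels. Highest in AE was chromosome 1 (chr1:138296001-138301800, 5.8 kb), at 1.70 and 1.34 in AE and 0.615 and 0.611 in E14.5. It was followed by chromosome 3 (chr3:88185601-88191000), at 1.40 and 1.59 in AE and 0.662 and 0.681 in E14.5. The widest gap in the other direction was on chromosome 1 (chr1:19220801-19227600, 6.8 kb), at 1.08 and 1.09 in AE and 2.21 and 2.40 in E14.5. The next was chromosome 3 (chr3:17685001-17697200, 12.2 kb), at 1.08 and 1.08 in AE and 2.12 and 2.30 in E14.5. In the first pair the E14.5 islands stood below the typical shared domain and the AE islands above it, whereas in the second pair the AE islands were near the typical level.

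In the populations that were not used to form the classes, AE-only length was covered less than all called length by E12.5 islands, and E14.5-only length less than all called length by ISC islands, in both libraries of each. ISC islands covered 85.9% (replicate 1) and 35.5% (replicate 2) of the AE-only length, and E12.5 islands 5.54% and 6.33%. Of the E14.5-only length, ISC islands covered 49.1% and 12.3% and E12.5 islands 20.4% and 47.6%. The lists differ in extent, with 241 Mb in ISC replicate 1, so each value is set beside the share of all 201 Mb that the same list covered. That share was 60.2% and 22.6% for ISC and 15.5% and 25.5% for E12.5. AE-only length was thus covered 1.43 and 1.57 times as much as all called length in ISC, and 0.357 and 0.248 times in E12.5. E14.5-only length was covered 0.817 and 0.545 times as much in ISC, and 1.31 and 1.86 times in E12.5. These 2 deficits held in both libraries with each AE or E14.5 library left out, each set against the length then called. The deficit of E14.5-only length in ISC replicate 1 was small in some settings, with ratios from 0.620 to 0.948. All called length includes the shared class, which each of these lists covered more than either one-sided class. That raises the level against which both one-sided classes are set, so a deficit is easier to reach and an excess harder. The excess of AE-only length in ISC did not hold in ISC replicate 2, at 0.721 without AE replicate 1 and 0.823 without AE replicate 2. In those settings the class needs only 1 AE list. Where both AE lists were required, the excess held, at 1.31 to 1.43 in ISC replicate 1 and 1.35 to 1.58 in ISC replicate 2. The excess of E14.5-only length in E12.5 did not hold in E12.5 replicate 1, at 0.761 without E14.5 replicate 1 and 0.818 without E14.5 replicate 2, where E12.5 replicate 2 gave 1.02 and 1.18. There the class needs only 1 E14.5 list. Where both E14.5 lists were required, the ratio was 1.26 to 1.46 in E12.5 replicate 1 and 1.67 to 1.89 in E12.5 replicate 2. No test was made.

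The shared class was covered by 97.4% and 78.7% in ISC and by 58.9% and 80.3% in E12.5. Of the shared length 0.644% was called in none of these 4 libraries, against 12.1% of the AE-only and 24.9% of the E14.5-only length and 31.3% of all called length. Both ISC lists called 34.4% of the AE-only length and both E12.5 lists 0.795%. For the E14.5-only length these shares were 10.2% and 15.0%, beside 21.0% and 10.5% of all called length. Neither ISC list called 13.0% of the AE-only and 48.7% of the E14.5-only length, beside 38.2% of all called length. Neither E12.5 list called 88.9% of the AE-only and 47.1% of the E14.5-only length, beside 69.5% of all called length.

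**Figure D5:**
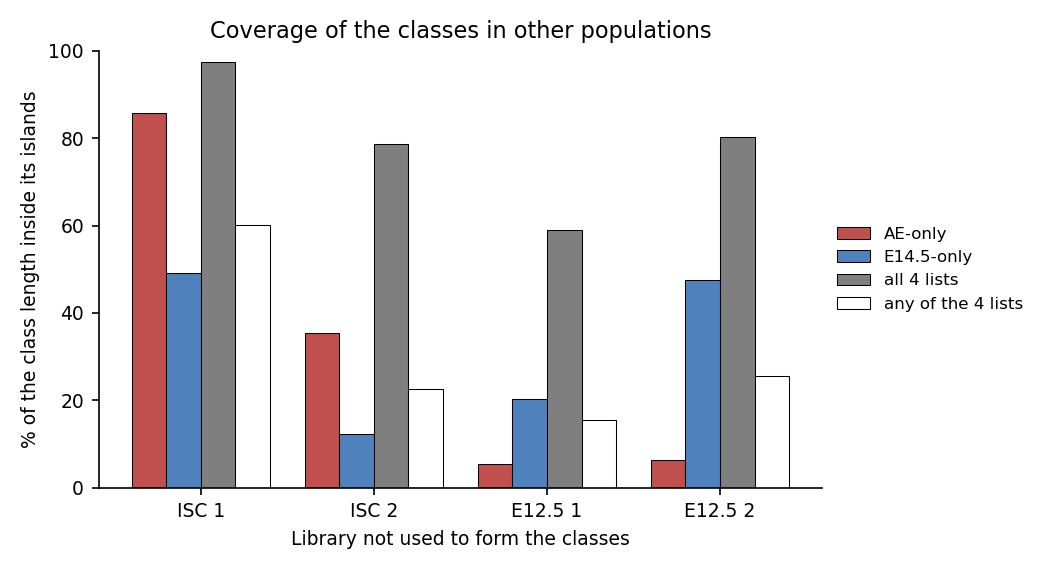
Bars give the percentage of AE-only, E14.5-only, shared and any called length that lies in islands of each ISC and E12.5 library, none of which was used to form the classes. AE-only bars are above the white bars in ISC (85.9% and 35.5%) and below them in E12.5 (5.54% and 6.33%), and E14.5-only bars the reverse.

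One-sided length that ISC (for AE) or E12.5 (for E14.5) also called had the higher read densities, given here as medians over windows. AE-only windows called in both ISC lists lay in islands with medians of 40.8 and 26.9 ChIP reads per kb in AE replicates 1 and 2, windows called in 1 ISC list had 37.3 and 24.4, and windows called in neither had 33.9 and 21.5. E14.5-only windows called in both E12.5 lists lay in islands with 40.7 and 30.9 ChIP reads per kb in E14.5 replicates 1 and 2, those called in 1 list had 33.3 and 24.3, and those called in neither 28.8 and 20.1. Control densities fell in the same order, to 15.7 and 16.6 per kb over AE-only windows in neither ISC list, against 19.1 and 20.0 over those in both. Over E14.5-only windows they were 20.3 and 20.2 per kb in neither E12.5 list, against 24.2 and 24.1 in both. The ratio of ChIP to control reads kept the order at E14.5, with 1.62 and 1.22 in both, 1.53 and 1.13 in 1, and 1.41 and 1.01 in neither. In AE it did not, with 2.10 and 1.37, 2.00 and 1.30, and 2.11 and 1.31.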

How the data were processed

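ChIP-seq of H3K27me3 on sheared chromatin of 350 to 700 bp was compared in 2 AE and 2 E14.5 libraries. The submitters' processing notes name mm9 as the build, SICER 1.1 and SAMtools 1.2, and also Bowtie 1.1.2 and bcl2fastq 1.8.4, without their roles. SICER joins enriched windows into islands. Window, gap and cut-off settings are not given in the sources used here. The deposited lists have no header, and columns 1 to 5 were taken, by their values, to hold an interval followed by its ChIP and its control read count. The deposited counts are not normalized. Islands were called per library. In the 41 AE and 52 E14.5 intervals with the same borders in both replicates, control counts were identical in all, so replicates share an input, and ChIP counts were identical in 0 and 1, so no library was a copy. ChIP reads inside islands numbered 3124099 and 2427692 in AE and 3020599 and 2999884 in E14.5. Library totals are not given in the lists, so no count test and no interval was made.

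Islands were laid on windows of 200 bp using Python 3.11.15, numpy 2.4.6 and pandas 2.3.3, and coordinates are 1-based. A stretch is a run of windows of 1 class. The density of a stretch is the mean over its windows of the reads per kb of the island there, which can reach beyond the stretch. Single values per library were compared by exact two-sided permutation. Painting and classes were checked on simulated lists. Regions named are the 8 longest stretches of each class, the longest of each on chromosome X and the 4 bins of 1 Mb with most length of each one-sided class. The gene and promoter tables at hand belong to another assembly, so genes and sequences are not given here. Alternatives were equal covered length, islands at or above the list's median ChIP over control, no islands above 2 times the control median, gaps up to 2 kb closed, whole islands with 50% overlap, stretches of at least 1 kb, and each library left out. Ratios by chromosome and coverage relative to each setting's called length were added after seeing the data. Members, classes and alternatives were chosen with earlier results of these data known.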

Additional observations from a re-analysis of the deposited data

How the results depend on the processing

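AE-only, E14.5-only and shared length stayed within 1.5 times their value at equal covered length, without high-control islands, with gaps closed and for stretches of at least 1 kb. Among islands at or above the list's median ChIP over control, AE-only length was 6.05 Mb, E14.5-only length 16.1 Mb and shared length 11.0 Mb, a difference of -10.1 Mb between the first pair. With whole islands, AE-only minus E14.5-only length was -4.46 Mb. Leaving out 1 library gave 16.03 to 48.4 Mb of AE-only, 27.6 to 59.8 Mb of E14.5-only and 24.2 to 29.5 Mb of shared length. AE-only minus E14.5-only length then ran from -43.8 to 20.7 Mb, and was positive without AE replicate 1 (20.7 Mb) and replicate 2 (11.6 Mb), where a single AE library suffices for the class. The difference in median island length ran from -2.5 to -0.7 kb.

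The mean E12.5 coverage of AE-only length was 6.92% at equal covered length and 4.00% to 10.2% with 1 library left out, against 5.93% in the full lists. That of E14.5-only length was 19.9% to 37.4% with 1 library left out, against 34.0%. The chromosome X difference kept its sign in the 8 settings where it was recomputed. It was not recomputed for whole islands or for stretches of at least 1 kb. With a replicate block, pairing equal replicate numbers, it was -2.64 points (exact sign-flip p = 0.5, the smallest for 2 pairs), and that in median island length -1.6 kb (exact p = 1). The numbers do not pair the libraries by any label, and the replicate differences of AE and E14.5 had a correlation of 0.00839 over windows. Depth limits what was called: an uncalled window is not a window without the mark.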
